A study of Mus musculus with 4 samples.

Results

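Bidirectional protein-coding promoters are stretches of DNA from which a pair of protein-coding genes on opposite strands is read in opposite directions. They were chosen from the gene annotation alone (GENCODE release M21, mouse build mm10, which is GRCm38). A pair qualified when both genes are protein-coding, lie on opposite strands, are transcribed away from each other and have transcription start sites (TSSs) at most 1 kb apart. The window of a pair ran from TSS to TSS and 500 bp further at each end. The rule gave 755 pairs made of 1489 of 21938 protein-coding genes (6.79%), and 21 of these genes belong to 2 pairs. The remaining 20449 promoters, each a window of 500 bp on either side of the TSS, had no such partner and were the comparison; they are called unpartnered below.

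Accessible chromatin was mapped by ATAC-seq, which uses a transposase to cut and tag exposed DNA, in primary T-helper 17 (Th17) cells of mouse strain C57BL/6NJ. Th17 cells are CD4 T cells that secrete interleukin 17, and the labels point to a protocol that differentiates them from CD4 T cells in culture. There is 1 group of 4 biological replicates that carry the same donor identifier, with no other genotype, treatment or cell type, sex not collected and age unknown. Each replicate has its own list of open regions, 83904, 85127, 85293 and 84137 in replicates 1 to 4, and the lists hold no read counts, so depth is unknown and no counting interval is given.

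In a bidirectional promoter the core promoters of both genes lie back to back and share the DNA between them, which is usually rich in CpG dinucleotides and poor in TATA boxes. Such pairs are common among housekeeping genes, such as those for DNA repair and mitochondrial function, and factors including NRF1, ETS-family proteins, NFY and YY1 are known to bind many of them. An open region in ATAC-seq marks a stretch where DNA is more exposed than background, and its summit is the position of the strongest signal.

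The labelled cell type was checked by regions within 500 bp of the outermost TSS of marker genes, in all 4 replicates. All 5 T-cell markers (Cd3e, Cd3g, Cd4, Lck, Zap70) had one, as did the Th17 markers Il17a, Il23r and Ccr6, whereas Il17f had none in this narrow window in any replicate. Regions were absent at all 3 B-cell and all 3 myeloid markers and present at 0 of 2 natural killer markers (Klrb1c had one in 2 replicates) and at 1 of 2 CD8 markers (Cd8b1). The peak names also carry 72hrs, ASTARR.insert and a tag that is KS134 for replicates 1 and 2 but KS136 for the other two; the labels explain none of these.

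The DNA between the TSSs is printed here for 6 pairs, so that the strings counted further on can be seen in place. For 5 of them the pair was the one with the highest signal among those open in all 4 replicates with TSSs 60 to 300 bp apart and a match to a given string between the TSSs; the last is the CpG-richest of the closed pairs. Letters are those of the RefSeq GRCm38.p6 genome, plus strand, 5′ to 3′, from the base after the TSS of the minus-strand gene to the base before the TSS of the plus-strand gene. Capitals mark matches, on either strand, to 7 strings: GCGCATGCG (NRF1), CCGGAAGT (ETS), CCAAT (NFY), AAGATGGCG (YY1), TCTCGCGAG (ZBTB33), ACTACAATT (ZNF143) and TGACGTCA (the cAMP response element, CRE).
Arsk/Ttc37, chr13:76098661-76098733: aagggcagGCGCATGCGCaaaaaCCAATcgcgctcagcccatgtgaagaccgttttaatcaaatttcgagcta
Zcchc17/Snrnp40, chr4:130359944-130360131: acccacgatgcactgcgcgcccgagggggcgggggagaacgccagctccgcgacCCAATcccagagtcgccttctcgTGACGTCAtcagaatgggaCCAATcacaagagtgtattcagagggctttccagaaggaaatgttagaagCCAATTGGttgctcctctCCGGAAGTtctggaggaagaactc
2700097O09Rik/Srp54a, chr12:55080111-55080261: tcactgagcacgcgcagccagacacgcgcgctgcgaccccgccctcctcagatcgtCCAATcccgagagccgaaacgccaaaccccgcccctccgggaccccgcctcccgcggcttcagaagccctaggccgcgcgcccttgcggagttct
Idh3g/Ssr4, chrX:73786898-73787027: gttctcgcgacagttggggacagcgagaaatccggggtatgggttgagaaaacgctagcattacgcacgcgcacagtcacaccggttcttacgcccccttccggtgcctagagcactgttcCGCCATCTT
Mau2/Sugp1, chr8:70042735-70042812: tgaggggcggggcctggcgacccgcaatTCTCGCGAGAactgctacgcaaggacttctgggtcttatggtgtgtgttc
Hist1h2bq/Hist1h2ao, chr13:21810198-21810464: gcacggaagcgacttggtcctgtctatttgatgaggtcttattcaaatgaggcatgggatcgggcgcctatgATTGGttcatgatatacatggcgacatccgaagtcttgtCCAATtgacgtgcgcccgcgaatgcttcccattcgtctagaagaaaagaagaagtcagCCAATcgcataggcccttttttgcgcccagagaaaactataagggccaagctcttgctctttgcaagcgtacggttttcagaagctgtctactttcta
Arsk/Ttc37 was chosen for NRF1, Zcchc17/Snrnp40 for both ETS and CRE, 2700097O09Rik/Srp54a for NFY, Idh3g/Ssr4 for YY1 and Mau2/Sugp1 for ZBTB33. The palindromic NRF1 and ZBTB33 sites of Arsk/Ttc37 and Mau2/Sugp1 each match on both strands, in positions that overlap. No pair of the set had a ZNF143 match that met the conditions. Zcchc17/Snrnp40 holds 6 matches in 188 bp, among them 4 to CCAAT or its complement, of which the last 2 overlap. The closed histone pair holds 3 matches to CCAAT and none to the other 6 strings.

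The TSSs of a pair lay a median of 129 bp apart (quartiles 66.5 and 240 bp, range 0 to 987 bp), and 619 of 755 pairs (82.0%) had them at most 300 bp apart. The pairs were spread over 20 chromosomes, with 20 pairs on X and 0 on Y. Their windows had a median CpG observed/expected ratio of 0.76 against 0.51 in unpartnered windows, and a median GC content of 59.4% against 54.2%. When all protein-coding promoters were cut into 5 equal bins by this ratio, 37.2% and 37.7% of pairs fell into the 2 richest bins, against 18.9% and 18.5% of unpartnered promoters. The pair windows held 699, 700, 700 and 700 distinct regions in replicates 1 to 4, or 0.821% to 0.833% of a list. Base composition thus differed between the classes, and open shares, percentiles and widths are given below with and without account of it. Strings at summits and the reach of regions over the TSSs were not adjusted for it.

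Nearly every bidirectional promoter was open in these cells. A region overlapped the window in all 4 replicates at 716 of 755 pairs (94.8%), in 3 replicates at 2 pairs, in 2 replicates at 1 pair and in none at 36 pairs (4.77%). Over all protein-coding promoters 57.5% were open in all 4 replicates and 39.1% in none, and over unpartnered promoters 54.8% were open in all 4 and 41.5% in none. By replicate, the open share was 95.1%, 94.8%, 95.2% and 95.2% of pairs (mean 95.1% ± 0.187, SD, n = 4) and 56.2%, 56.2%, 57.1% and 56.8% of unpartnered promoters (56.6% ± 0.443). The ranges of the 2 classes did not overlap, and the difference was 38.5 ± 0.313 percentage points (38.1 to 38.9 over the replicates). An exact two-sided sign-flip permutation test of the difference gave p = 0.13, the smallest that this test allows with 4 replicates, so it cannot pass 0.05 here.

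The difference was smaller at equal CpG content. Weighting the unpartnered promoters to the CpG bins of the pairs raised their open share to 86.9% ± 0.421 and left a difference of 8.18 ± 0.279 points (7.79 to 8.43, exact sign-flip permutation p = 0.13, n = 4). Within the strongest 50000 regions of each list this difference was 15.9 points. Within bins from the poorest to the richest, 20%, 38.6% ± 2.62, 92.7% ± 0.637, 99.3% and 99.3% of pairs were open (10, 22, 157, 281 and 285 pairs), against 7.11% ± 0.307, 24.0% ± 0.504, 72.6% ± 0.835, 93.1% ± 0.467 and 96.4% ± 0.167 of unpartnered promoters. Pairs were above unpartnered promoters in every replicate of every bin, with the widest gap in the middle bin and 2.95 points in the richest. The 2 poorest bins rest on 10 and 22 pairs, of which 2 and 8 were open in all 4 replicates.

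**Figure D1:**
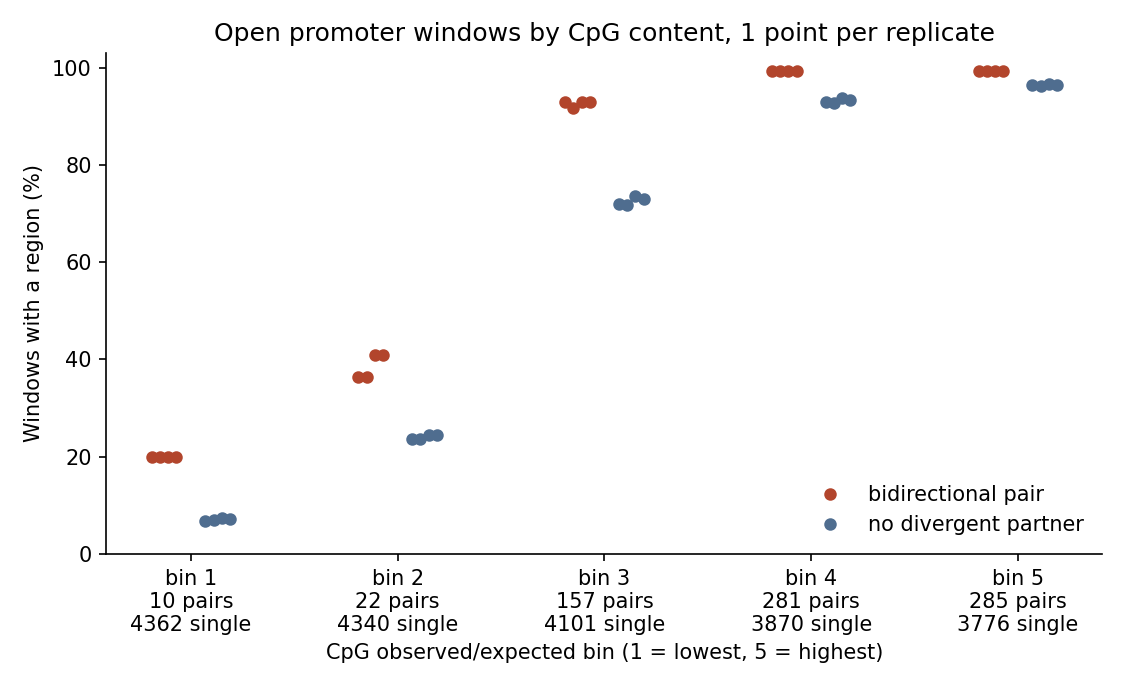
Share of promoter windows with an open region (y axis, %) in 5 bins of CpG observed/expected ratio (x axis, poorest to richest), 1 point per replicate, for bidirectional pairs and for promoters with no divergent partner, whose number is given as "single" under each bin. The pairs lie above the unpartnered promoters in every bin, from 20% against 7.11% in the poorest to 99.3% against 96.4% in the richest.

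The unpartnered class is itself mixed, so it was divided by what else starts within 1 kb. The 17327 promoters with no other annotated TSS nearby were open in 51.8% ± 0.447 (SD, n = 4), or 86.0% ± 0.451 at the CpG content of the pairs, 9.13 points below them (8.71 to 9.41). The 769 promoters with a divergent non-coding gene had the same median CpG ratio as the pairs, 0.76, and were open in 83.2% ± 0.595, or 89.6% ± 0.539 weighted, 5.48 points below (4.88 to 5.73). The 893 promoters whose opposite-strand coding neighbour starts inside the gene, so that the transcripts overlap head to head, were open in 94.8% ± 0.334, or 95.9% ± 0.280 weighted. The weighted difference of the pairs from these was -0.82 points (-0.94 to -0.68 over the replicates), while unweighted the pairs had the higher share (95.1% against 94.8%). The head-to-head overlapping promoters and the pairs, which both have a coding TSS on the opposite strand within 1 kb, had the highest open shares. The exact sign-flip permutation p was 0.13 for each of these weighted differences (n = 4).

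Regions at open pairs were also stronger within their replicate. The signal in the deposited lists, read here as an enrichment over background from the file layout, was ranked within each list, so that 100 is the strongest region of a replicate. The strongest region of an open pair had a median percentile of 85.4, 85.2, 86.0 and 85.3 in replicates 1 to 4, against 76.7, 76.3, 77.3 and 76.3 at open unpartnered promoters. The ranges did not overlap and the difference was 8.82 ± 0.132 percentile points (exact sign-flip permutation p = 0.13, n = 4), or 3.04 ± 0.232 among windows of the richest CpG bin. In signal this was a median of 12.2 ± 0.358 against 10.2 ± 0.281, and in the deposited −log10 q 278 ± 13.8 against 156 ± 9.98 (SD, n = 4). Within CpG bins from the poorest to the richest, the median percentile of pairs averaged 69.5, 80.3, 85.3, 87.0 and 83.6 over the replicates. At unpartnered promoters it averaged 53.5, 57.3, 72.1, 80.5 and 80.6, so the richest bin had the smallest difference. The 2 poorest bins held only 2 and 8 pairs open in all 4 replicates. The strongest region was above percentile 90 at 35.9% ± 0.443 of open pairs and at 23.6% ± 0.487 of open unpartnered promoters. Within the unpartnered class, head-to-head overlapping promoters had a median percentile of 83.0 ± 0.349. Those with a divergent non-coding gene had 81.6 ± 0.216, both nearer to the pairs (85.5 ± 0.370) than the class as a whole.

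**Figure D2:**
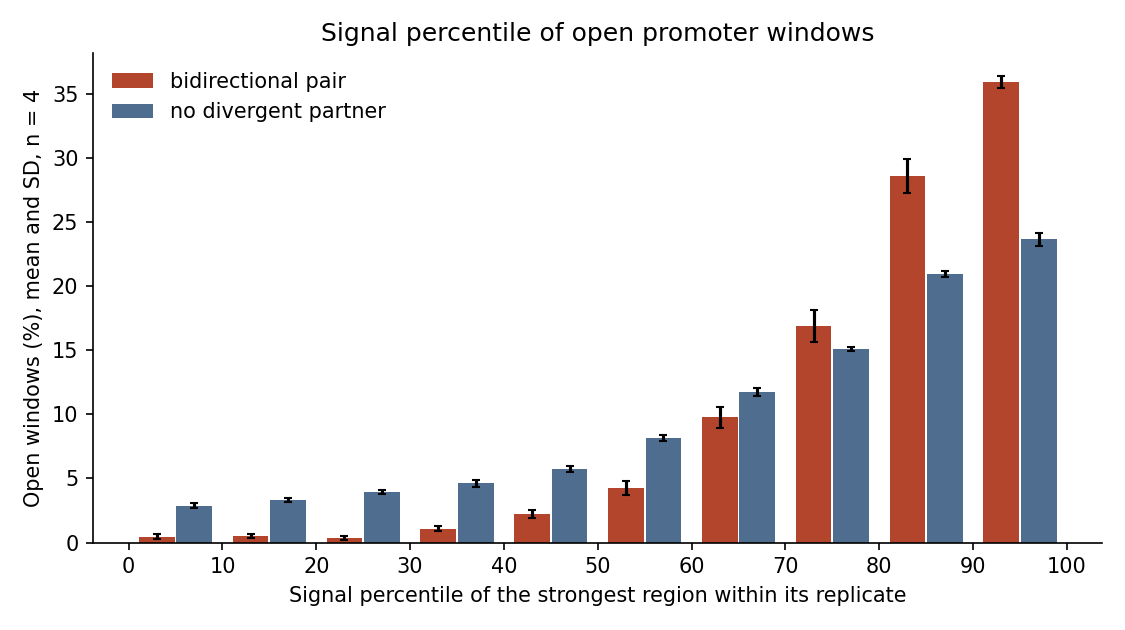
Share of open windows (y axis, %, mean and SD of 4 replicates) by the signal percentile of their strongest region within its replicate (x axis, steps of 10), for bidirectional pairs and promoters with no divergent partner. Pairs exceed unpartnered promoters from percentile 70 upwards, with 35.9% against 23.6% above 90, and fall below them under 70.

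The median width of these regions was 1489, 1459, 1533 and 1517 bp at pairs in replicates 1 to 4, and 1319, 1302, 1375 and 1357 bp at unpartnered promoters. Pairs were wider in each replicate, by 161 ± 5.97 bp (157 to 170, exact sign-flip permutation p = 0.13, n = 4), and by 84.0 ± 18.3 bp in the richest CpG bin. The unpartnered promoters most like the pairs were nearly as wide. The median was 1488 ± 33.4 bp at head-to-head overlapping promoters and 1464 ± 33.4 bp at those with a divergent non-coding gene. At pairs it was 1499.5 ± 32.6 bp (SD, n = 4). Replicates 3 and 4, whose peak names carry the tag KS136, had wider regions in both classes than replicates 1 and 2, tagged KS134; the part of the tag in the widths was not tested, and the difference between classes was 170 and 157 bp under the first tag and 158 and 160 bp under the second. Among pairs, wider regions tended to be weaker. Spearman's rho between width and percentile across 716 to 719 open pairs was -0.33 to -0.38 in the 4 replicates. It is a description across pairs that share libraries. Across the same pairs, rho between the CpG ratio and the percentile was -0.06 to -0.08, so the CpG content that went with openness did not rank the open pairs.

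A region at a bidirectional promoter typically covered both starts. A single region lay over both TSSs in 96.5%, 96.4%, 96.7% and 96.8% of open pairs in replicates 1 to 4 (96.6% ± 0.186, SD, n = 4), and did so in all 4 replicates at 688 pairs. Regions with a median width of 1459 to 1533 bp are much longer than the median 129 bp between the TSSs. Coverage of both starts is thus a description, and it was not set against unpartnered promoters. The region reached a median of 639 ± 13.8 bp into each gene of a pair, less than the 817 ± 19.4 bp it reached downstream of an unpartnered TSS and more than the 484 ± 13.1 bp upstream of it. The reach into a paired gene minus that downstream of an unpartnered TSS was -176, -171, -183 and -182.5 bp in replicates 1 to 4 (exact sign-flip permutation p = 0.13, n = 4). At a pair either end of the region lies in a gene, and the centre of the region was a median of 139.9 ± 3.45 bp from the midpoint. The summit of an unpartnered promoter lay a median of 24.0 ± 1.15 bp downstream of its TSS, with 42.5% ± 0.540 of summits upstream. At pairs the summit lay on the side of the plus-strand gene in 50.5% ± 0.090, a median of 68.4 ± 1.75 bp from the midpoint and 51.6 ± 0.947 bp from the nearer TSS. The strongest summit fell between the TSSs in 46.0%, 47.2%, 44.9% and 47.4% of open pairs (46.4% ± 1.17).

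**Figure D3:**
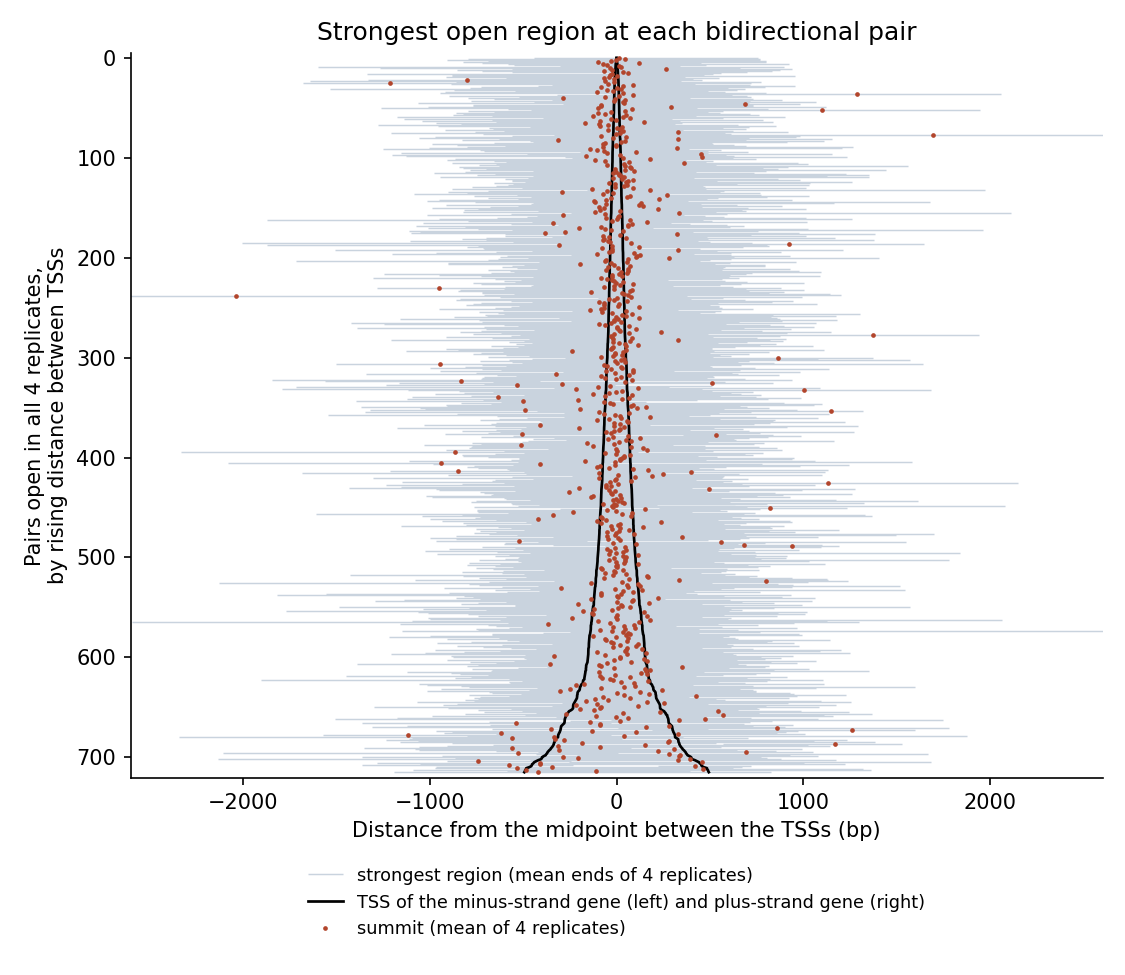
The strongest open region of each of the 716 pairs open in all 4 replicates (grey lines, mean ends of 4 replicates), its summit (points) and both TSSs (black lines), as distance in bp from the midpoint between the TSSs (x axis, cropped at the sides), with pairs ordered by rising distance between the TSSs (y axis). Grey lines span both black lines at nearly all pairs, and most summits stay near the midpoint until the TSSs separate at the bottom.

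The shape changed with the distance between the TSSs. The pairs were put into 5 classes with upper limits of 100, 200, 300, 500 and 1000 bp between the TSSs, in which 302 of 313, 196 of 206, 93 of 100, 63 of 66 and 62 of 70 pairs were open in all 4 replicates. A single region covered both TSSs in 99.9%, 96.2%, 100% and 100% of open pairs in the first 4 of these classes and in 73.2% ± 1.47 of the last. The summit lay between the TSSs in 22.5% ± 1.83 of open pairs in the closest class and in 78.8% ± 5.86 of those over 300 and up to 500 bp apart. Its median distance from the midpoint was 60 ± 1.83, 58.9 ± 3.44 and 60.8 ± 3.33 bp in the first 3 classes, 100.5 ± 6.62 bp in the fourth and 332 ± 5.63 bp in the last. Up to 300 bp the summit thus stayed equally close to the middle. Its distance from the nearer TSS rose over the 5 classes, from 36.6 ± 0.479, 52.8 ± 1.66, 79.0 ± 7.62 and 90.8 ± 5.97 to 127 ± 11.2 bp. In the widest class the summit lay between the TSSs in 59.6% ± 1.87 of open pairs. The side of the summit was the same in all 4 replicates at 236 of 302 pairs (78.1%) in the closest class and at 59 of 62 (95.2%) in the widest. Median width rose from 1463 ± 49.2 bp in the closest class to 1711 ± 25.2 bp in the widest, while the median percentile was 84.5 ± 0.650, 86.4 ± 0.283, 88.7 ± 0.236, 89.7 ± 0.223 and 78.1 ± 1.35. Percentiles therefore rose up to 500 bp and were lowest in the widest class, which also had the lowest median CpG ratio (0.64 against 0.74 to 0.78). Across all open pairs, distance had a Spearman's rho of 0.09 to 0.14 with width and of 0.01 to 0.05 with the percentile.

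**Figure D4:**
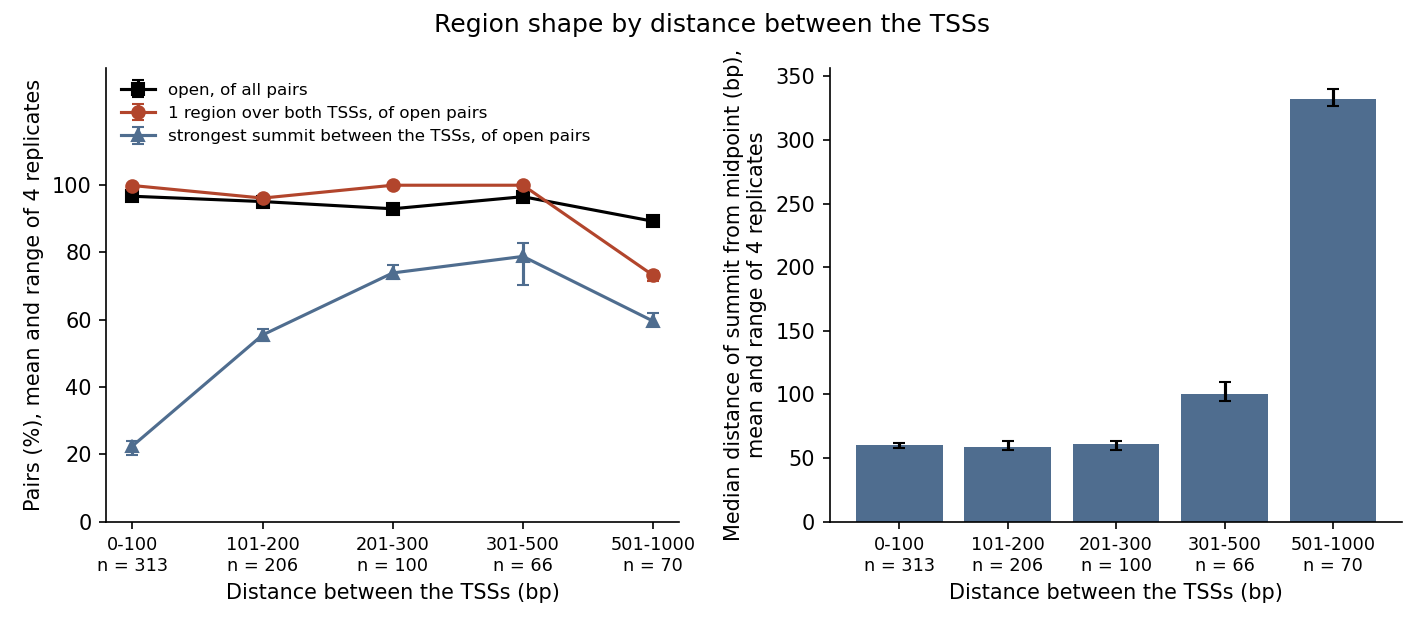
Left, share of pairs open and, among open pairs, with 1 region over both TSSs or with the strongest summit between them (y axis, %), by distance between the TSSs (x axis, bp); right, median distance of the summit from the midpoint (y axis, bp); means and ranges of 4 replicates. Coverage of both TSSs falls to 73.2% and the summit moves to 332 bp from the midpoint beyond 500 bp.

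Whether openness steps at the 1 kb limit was not tested, and few pairs lie close to it. Just inside it, Btf3l4/Txndc12 (987 bp), Asphd1/Sez6l2 (981 bp) and Zfyve26/Rad51b (978 bp) were open in all 4 replicates. Just outside it, Gpr108/Trip10 (1009 bp) and Sgsm2/Tsr1 (1011 bp) were open in all 4 and Serpina7/4930513O06Rik (1007 bp) in none. Of 108 pairs over 1 kb and up to 2 kb apart, 86 (79.6%) were open in all 4, against 62 of 70 (88.6%) over 500 bp and up to 1 kb apart. These shares were not adjusted for CpG content.

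Only Pecam1/Milr1, with TSSs 598 bp apart on chromosome 11, had a separate region over each TSS in all 4 replicates. Pecam1 encodes the adhesion molecule CD31 and Milr1 an inhibitory receptor of mast cells, and the stronger of the regions was at percentile 50.5, 51.9, 48.9 and 50.1 in replicates 1 to 4. At 15 pairs, 14 of them with TSSs over 500 bp apart, regions covered the TSS of the same single gene in all 4 replicates, that of the minus-strand gene at 10 pairs and of the plus-strand gene at 5. The examples given were picked after their values were seen. At Actn3/Zdhhc24 the region covered the palmitoyltransferase gene Zdhhc24, at percentile 97.3, 96.6, 95.9 and 96.5, and not Actn3, which encodes the alpha-actinin of fast muscle. At Sirt6/Ankrd24 it covered Sirt6, the gene of a chromatin deacetylase, at percentile 81.0, 76.8, 78.4 and 72.1. At Obsl1/Inha it covered Obsl1, a cytoskeletal adaptor gene, and not Inha, the inhibin alpha gene. The closest of these pairs was Surf4/Stkld1, 119 bp apart, where the region covered Surf4, whose product sorts cargo in the early secretory pathway. At Klc3/Ckm a region covered the Klc3 TSS, but the strongest region of the window peaked 1168, 1169, 1169 and 1169 bp from the midpoint in replicates 1 to 4, inside the muscle creatine kinase gene Ckm. Of the genes whose TSS was not covered at these 15 pairs, Ankrd24, Gins1, Sox6 and Nisch had another annotated start that was open. An uncovered TSS here thus does not mean that the gene was closed. The remaining pairs open in all 4 replicates comprised 3 with no TSS under a region in any replicate and 9 whose coverage differed between replicates.

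Signal ranged widely among the pairs. Over the 716 pairs open in all 4 replicates, the mean percentile had quartiles of 74.8, 85.5 and 92.9 and a range of 9.12 to 99.8; 256 pairs (35.8%) were above 90 and 32 below 50. The values repeated well, with a median SD over the 4 replicates of 1.65 percentile points and an SD above 5 at 28 pairs. The 10 strongest pairs lay on 9 chromosomes and had TSSs 18 to 547 bp apart.

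The strongest was 2700097O09Rik/Srp54a, whose second gene encodes the GTPase subunit of the signal recognition particle, with a signal of 18.7, 20.5, 19.7 and 18.3 in replicates 1 to 4 (percentile 99.8 ± 0.161, SD, n = 4). Zcchc17/Snrnp40, which includes a gene of the U5 splicing particle, had 19.1, 20.1, 18.1 and 18.2. Hspa1a/Hspa1l, both Hsp70 chaperone genes, had 18.3, 19.6, 19.1 and 18.7, in a region only 799.75 ± 38.8 bp wide. The values of these 3 pairs overlap over the replicates, so their order is not resolved. Mrpl32/Psma2 joins a gene of the mitochondrial ribosome to one of the proteasome and had a signal of 18.3, 19.9, 17.1 and 18.2. Fam3a/Ikbkg on chromosome X, with the gene of the NF-kB regulator NEMO, had 18.8, 19.6, 16.6 and 17.6. Tctn3/Entpd1, with the gene of the ectonucleotidase CD39, had 18.7, 18.2, 17.1 and 17.7. The rest of the 10 were 1700029J07Rik/Ufsp2, 6430550D23Rik/Ergic3, Mfsd8/Abhd18 and Cep128/Tshr, at percentiles of 99.2 to 99.7. Tshr, the thyrotropin receptor gene of the thyroid, shares its region with the centrosomal gene Cep128, and a shared region cannot be assigned to either gene.

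The weakest pairs open in all 4 replicates were Nr2e1/Ostm1 at percentile 9.12 ± 3.91, P3h4/Fkbp10 at 9.87 ± 5.88, Nudt22/Trpt1 at 11.1 ± 6.28, Hist1h2bf/Hist1h2ad at 15.2 ± 2.06 and Tango2/Arvcf at 19.9 ± 2.16 (SD, n = 4). The first 3 do not differ from each other beyond their spread. At Nr2e1/Ostm1 a region covered a TSS in 1 replicate only, that of Nr2e1. Ostm1, P3h4, Tango2 and Arvcf had another annotated start that was open, so these low values describe the outermost TSS. Of the pairs open in some replicates, Sec24a/Sar1b, both genes of the COPII vesicle coat, had a region in replicates 1, 3 and 4 at percentile 3.24, 10.1 and 9.49. Duox2/Duoxa2, an oxidase gene and that of its maturation factor, had one in replicates 1, 3 and 4 at percentile 3.36, 2.14 and 5.20. Kirrel2/Nphs1, genes of related adhesion proteins of the kidney filter, had one in replicates 3 and 4 at percentile 16.3 and 19.6. All 3 pairs thus lacked a region in the window in replicate 2, and where they had one it was below percentile 20. At Kirrel2/Nphs1 the nearest region of replicate 2 lay only 23 bp outside the window. It was 1666 bp away at Sec24a/Sar1b and 1846 bp away at Duox2/Duoxa2. Sec24a also had another annotated start that was open.

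The widest regions were mostly not the strongest. Mean widths ran from 481 to 3890 bp, with quartiles of 1255, 1510 and 1782 bp, and 8 pairs exceeded 3 kb. The widest was at the histone pair Hist1h2ag/Hist1h2bj, 3896, 3890, 3882 and 3892 bp in replicates 1 to 4, at percentile 43.1 ± 0.406. Hist1h2bl/Hist1h2ai followed with 3811 ± 169.7 bp, then Wrap53/Trp53 with 3141 ± 64.8 bp, Rnf166/Ctu2 with 3084 ± 66.5 bp and Nek8/Tlcd1 with 3075 ± 84.3 bp. Wrap53 encodes a telomerase factor and Trp53 the tumour suppressor p53; their region was at percentile 58.0, 56.7, 54.6 and 53.5. At Wrap53/Trp53 the strongest summit lay -945 bp from the midpoint in every replicate, on the Wrap53 side, at Rnf166/Ctu2 -2036.5 to -2039.5 bp and at Nek8/Tlcd1 1618 to 1719 bp. These 3 wide regions thus peaked outside the space between the TSSs, and Hist1h2bl/Hist1h2ai peaked inside it, -21.5 to -23.5 bp from the midpoint.

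Genes were then grouped by function, with lists set up from gene symbols. Membership of a pair follows from the annotation and not from ATAC-seq. Replication-dependent histone genes had the largest share in pairs (27 of 67, 40.3%). The 6 collagen IV genes had 2 in a pair (33.3%), followed by DNA repair and replication (37 of 137, 27.0%), the mitochondrial ribosome (22.8%), the respiratory chain (21.8%), RNA processing and export (20.4%), chaperones (19.4%), aminoacyl-tRNA synthetases and related genes (18.4%) and the proteasome (16%), against 6.79% of all protein-coding genes. The cytosolic ribosome stood at 9.64%, zinc finger genes at 5.17%, T-cell genes at 2.35% (5 of 213) and olfactory, vomeronasal and taste receptors at 0.137% (2 of 1458).

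All 38 pairs with a DNA repair or replication gene were open in all 4 replicates, against 94.8% of all pairs, with a median percentile of 92.9 against 85.5 over all pairs and a median width of 1408 against 1510 bp. Rpa3, a subunit of the single-stranded DNA binding protein RPA, forms 2 pairs, Rpa3/Umad1 and Rpa3/Gm45062, that share 1 region, at percentile 98.1, 98.3, 98.3 and 96.5. Prpf38a/Orc1 joins a splicing gene to a subunit of the origin recognition complex, at 97.6, 97.2, 95.1 and 97.2. The lowest of the list were Zfyve26/Rad51b, whose second gene acts in homologous recombination, at 73.4 ± 1.62 and Pxmp2/Pole, with the catalytic subunit of DNA polymerase epsilon, at 70.7 ± 2.5. Both lay below the lower quartile of all open pairs, 74.8. The list's unpartnered members were open in 93 of 100.

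Pairs of the other housekeeping lists were open in all 4 replicates at the following counts, beside 94.8% of all pairs. These were 18 of 18 pairs of the mitochondrial ribosome (median percentile 86.1), 24 of 24 of the respiratory chain (88.4), 17 of 17 of chaperones (88.2), 38 of 38 of RNA processing and export (83.5), 8 of 8 of the proteasome (80.1) and 7 of 7 of aminoacyl-tRNA synthetases (83.6). Unpartnered members of these 6 lists, in the same order, were open in all 4 replicates at 60 of 61, 76 of 86, 65 of 75, 131 of 148, 35 of 42 and 31 of 31. Pairs of the cytosolic ribosome were open at 7 of 8 and had a median percentile of 58.2, from 38.3 ± 2.54 at Polr3a/Rps24 to 82.4 ± 0.942 at Rps27/Rab13. All 7 open ribosomal pairs thus lay below the median of all pairs. Within the mitochondrial ribosome the pairs spread from Mrpl32/Psma2 (99.6 ± 0.242) and Mrpl50/Zfp189 (99.0 ± 0.344) to Zfp661/Mrps5 (43.0 ± 3.45) and Mrpl49/Fau (36.4 ± 2.13). In the respiratory chain they ran from Cebpz/Ndufaf7 (98.5 ± 0.815), with an assembly factor of complex I, to Rps28/Ndufa7 (58.2 ± 1.67), with a complex I subunit beside a ribosomal gene. Tbccd1/Dnajb11, with an Hsp40 gene of the endoplasmic reticulum, was at 98.4 ± 0.388, and Psmb1/Tbp, which joins a proteasome subunit to the TATA-binding protein, at 59.8 ± 2.18. Gart/Son, the only pair with a gene of purine synthesis, had a region of 2590, 2583, 2589 and 2592 bp at percentile 77.7 ± 0.676. The 16 open pairs of 18 with a zinc finger gene had a median percentile of 86.4.

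Histone pairs combined low signal with wide regions. Of 14 pairs with a replication-dependent histone gene, 13 of them with histone genes on both sides, 11 were open in all 4 replicates and 3 in none. Over all pairs 94.8% were open in all 4, as were 38 of 40 unpartnered histone genes. The open ones had a median percentile of 60.8, from 15.2 ± 2.06 at Hist1h2bf/Hist1h2ad to 68.1 ± 0.994 at Hist1h2bh/Hist1h3f, and a median width of 2470 bp. All 11 thus lay below the lower quartile of all pairs in signal, and the median was above the upper quartile, 1782 bp, in width. These genes are near-identical copies in clusters, and how reads that match several copies were treated is not given in the sources used here, so values of single histone pairs are uncertain.

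The 5 pairs with a gene of the T-cell list were all open in all 4 replicates, as were 94.8% of all pairs. Ikzf5/Acadsb, with a gene of the Ikaros family, was at percentile 97.6, 95.6, 94.3 and 93.6 in replicates 1 to 4. Wdhd1/Socs4, with a replication factor and a suppressor of cytokine signalling, was at 88.6, 91.1, 91.0 and 88.8. In each of these pairs the region is shared with the partner gene, and the data do not assign it to either. Dok1/Loxl3, with an adaptor that restrains receptor signalling, was at 74.0, 67.6, 79.2 and 76.1, in a region that covered the Dok1 TSS and not that of Loxl3, 702 bp away. Smyd1/Cd8b1 was at 64.1, 62.4, 60.4 and 58.5, in a region whose summit lay 4.5 to 23.5 bp from the midpoint between TSSs 555 bp apart. Cd8b1 encodes the beta chain of the CD8 co-receptor, which defines cytotoxic T cells, and Smyd1 a methyltransferase of muscle; the region covered the Cd8b1 TSS alone in 3 replicates and both TSSs in 1. Cd8a, the other CD8 gene, had no region within 500 bp of its TSS in any replicate. Il17rb/Chdh, with the receptor gene for interleukin 25, was at 25.5, 39.4, 39.0 and 37.9, the weakest of the 5 and lowest in replicate 1. Of the 208 unpartnered genes of the list, 181 (87.0%) were open in all 4 replicates.

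Only 2 chemosensory receptor genes were in pairs, and both pairs were open in all 4 replicates, as were 94.8% of all pairs. Nt5c3/Vmn1r4, a nucleotidase gene beside a vomeronasal receptor, was at percentile 93.0, 93.0, 93.2 and 92.8, and Tas1r1/Nol9, a taste receptor gene beside one for ribosomal RNA processing, at 69.2, 76.0, 74.0 and 69.8. Of the 1456 unpartnered receptor genes, 11 (0.755%) were open in all 4 replicates.

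The 36 closed pairs had less CpG than the open ones. Their median observed/expected ratio was 0.31 against 0.77 at pairs open in all 4 replicates, their median GC content was 54.1% against 59.5%, and 21 of 36 fell in the 2 poorest bins. The nearest region lay a median of 4787 bp from the window; it was within 5 kb in all 4 replicates at 18 pairs and over 50 kb away in all 4 at 4 pairs. At 13 of 36 pairs another annotated start of a member gene was open in all 4 replicates. Rps2, a ribosomal protein gene paired by its outermost TSS with Rnf151, is an example, with a region 1044, 1054, 1017 and 1015 bp from the window in replicates 1 to 4. Trim28, which encodes the corepressor KAP1 and is paired with Slc27a5, and Ccnt1, the cyclin T1 gene paired with 4930415O20Rik, were others. These pairs were closed around the outermost annotated TSS, while another start of the same gene was open.

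Of the closed pairs the 3 richest in CpG were histone pairs. Hist1h2bq/Hist1h2ao, whose sequence is printed above, had a ratio of 0.92 and its nearest region 890, 872, 800 and 837 bp away; Hist1h2ap/Hist1h2br had a ratio of 0.91 and a region 905 to 956 bp away, and Hist1h2ba/Hist1h2aa, genes of testis histone variants, 0.71 and 620 to 679 bp. Next came Ptchd1/Gm15155 on chromosome X (0.69), with no region within 250982 bp in any replicate. Smc1b/Ribc2 (0.65), whose first gene encodes a cohesin subunit of meiosis, had its nearest region 18895 bp away in every replicate. The others named by CpG content were Gm4779/8030474K03Rik, Lypd4/Dmrtc2, Bhmt2/Dmgdh, Tssk3/Fam229a and Aspa/Gm49340. Bhmt2 and Dmgdh both act in methyl-group metabolism of the liver, Tssk3 encodes a testis kinase and Aspa the aspartoacylase of the brain. Aspa had another annotated start that was open in all 4 replicates, so its gene was not closed throughout. Col4a4/Col4a3, the collagen pair of basement membranes, was closed too, with the nearest region 47084 to 60013 bp away.

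Strings of known factors were counted within 50 bp of the strongest summit, on both strands, in 716 to 719 open pairs and in open unpartnered promoters. The CCAAT box, bound by NFY, was at 29.81%, 30.03%, 30.32% and 29.49% of paired summits and 20.02%, 19.97%, 19.75% and 19.39% of unpartnered ones. The ranges did not overlap, with a difference of 10.1 points (9.79 to 10.6), against 1.45 points for the reversed, not complemented, string TAACC. CCGGAAGT, the ETS string, was at 5.64% ± 0.670 of paired and 3.50% ± 0.080 of unpartnered summits (SD, n = 4), GCGCATGCG, the NRF1 string, at 2.09% ± 0.199 and 1.01% ± 0.038, and TCTCGCGAG, of ZBTB33, at 1.57% ± 0.135 and 0.784% ± 0.049. All 3 were higher at pairs in every replicate. The E-box CACGTG was at 4.32% ± 0.502 and 3.50% ± 0.106, the CRE string TGACGTCA at 1.81% ± 0.199 and 1.31% ± 0.045, and GGGCGG, of KLF and SP factors, at 38.7% ± 1.49 and 36.7% ± 0.234. For GGGCGG the reversed string GGCGGG, which overlaps it in runs of G and C, was nearly as frequent (37.0% and 35.9%).

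The strings of AP-1, the factor family induced by T-cell activation, and of RUNX, which acts in T-cell development, were rarer at pairs. The AP-1 string TGANTCA was at 1.53%, 1.40%, 1.25% and 1.39% of paired summits and 3.75%, 3.63%, 3.51% and 3.73% of unpartnered ones. Ranges did not overlap, and the reversed string ACTNAGT differed by -0.18 points where TGANTCA differed by -2.26. The RUNX string TGTGGTT was at 0.731% ± 0.134 and 1.36% ± 0.083 of summits, while its reversed string went the other way, by 0.31 points. For AAGATGGCG, of YY1 (1.497% and 1.350%), TATAAA (1.01% and 1.25%) and AGGGGGCGC, of CTCF (0.940% and 0.948%), the direction within 50 bp was not the same in all replicates, and ACTACAATT, of ZNF143, was at only 2 or 3 paired summits per replicate. The first 2 depended on the window: for AAGATGGCG the difference was above 0 in every replicate within 25 bp (0.22 points) and within 100 bp (1.11 points, 0.81 to 1.46), and for TATAAA it was below 0 in every replicate within 100 bp (-0.528 to -0.105 points). Over the 13 strings the exact two-sided sign-flip permutation p (n = 4) was 0.13 for 10, 0.25 for YY1 and TATAAA and 0.75 for CTCF, or 0.163, 0.271 and 0.750 after Benjamini-Hochberg adjustment. With 4 replicates this test could not pass 0.05 for any of them.

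**Figure D5:**
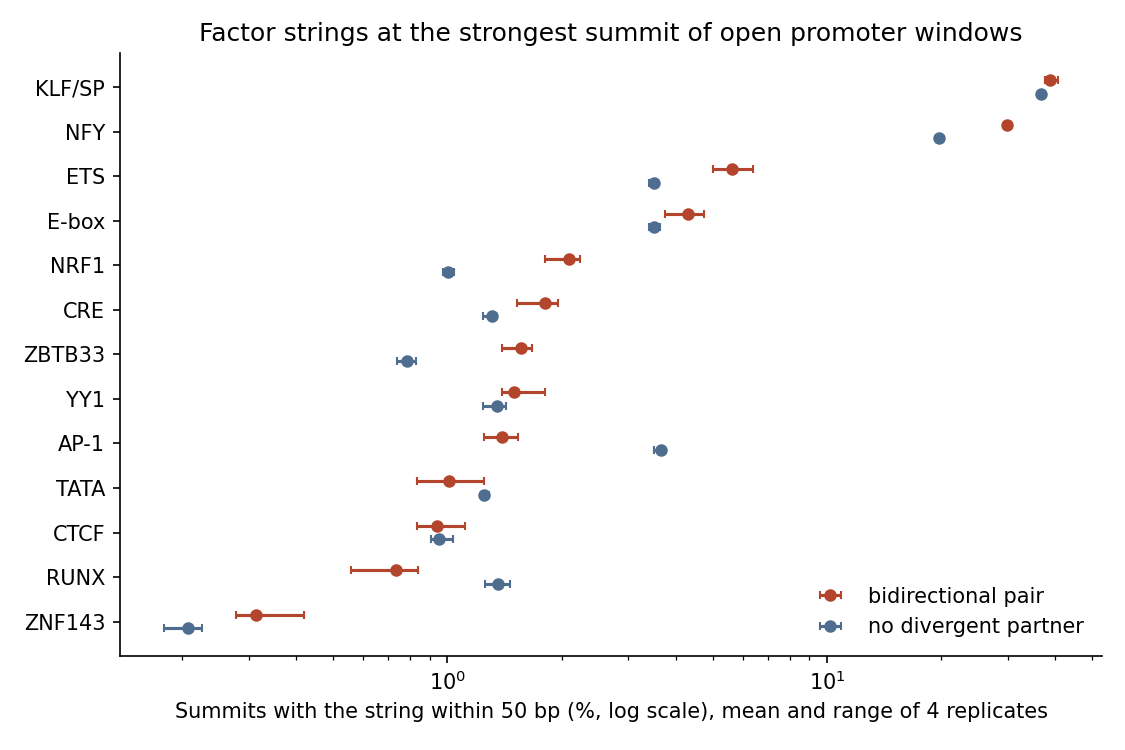
Share of strongest summits with a string within 50 bp (x axis, %, log scale; mean and range of 4 replicates) for 13 strings (y axis), at open bidirectional pairs and at open promoters with no divergent partner. NFY, ETS, NRF1 and ZBTB33 lie to the right at pairs and AP-1 and RUNX to the left, without overlap of the ranges.

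The same strings were counted in the annotated promoters, 250 bp before to 50 bp after each TSS, where the answer does not depend on ATAC-seq. CCGGAAGT was in 12.96% of paired genes' promoters, in 6.81% of unpartnered promoters weighted to the CpG bins of the pairs and in 4.70% of all promoters. AAGATGGCG was in 5.57%, 2.45% and 1.70%, TCTCGCGAG in 3.29%, 1.40% and 0.898%, GCGCATGCG in 4.77%, 3.60% and 2.48%, TGACGTCA in 4.50%, 3.43% and 2.43%, and CCAAT in 43.9%, 37.2% and 39.0%. GGGCGG was in 69.0%, 64.9% and 43.0%, with its reversed string in 68.4% of paired and 64.2% of weighted promoters. Rarer in paired promoters were TATAAA (4.10%, 7.64% and 12.6%), TGANTCA (3.16%, 4.26% and 6.91%) and TGTGGTT (2.28%, 3.42% and 5.09%). The reversed TATA string AAATAT was rarer too (3.56%, and 7.05% of weighted promoters), and that of TGANTCA was not (4.50% and 3.88%). Without weighting, the reversed string ACTNAGT was in 5.92% of unpartnered promoters, so there it was rarer at pairs as well. In the richest CpG bin alone TGANTCA was not rarer at pairs (3.10% against 2.91%), and GGGCGG was not more frequent (75.2% against 76.1%). Both genes of a pair often share these bases, so the 1489 paired promoters are not independent.

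Between the TSSs themselves, CCAAT was in 294 of 755 pairs (38.9%), GGGCGG in 408 (54.0%), CCGGAAGT in 51 (6.75%) and GCGCATGCG in 25 (3.31%). Of the 294 pairs with CCAAT, 275 were open in all 4 replicates, against 716 of all 755, and their median percentile was 89.2 against 83.6 for open pairs without it. Pairs with TATAAA between the TSSs (27 open of 30) had a median percentile of 70.2 against 85.8 without, and those with TGANTCA (18 open of 20) 72.7 against 85.6. The printed pairs show the range: Zcchc17/Snrnp40, with 4 CCAAT matches, and 2700097O09Rik/Srp54a, with 1, were both above percentile 99.5 in every replicate, Arsk/Ttc37 was at percentile 98.3, 94.5, 96.8 and 96.9, Mau2/Sugp1 at 90.5, 94.7, 92.2 and 93.5, and Idh3g/Ssr4 at 85.4, 85.7, 88.0 and 86.5, whereas Hist1h2bq/Hist1h2ao, with 3, was closed. A match is a description of the letters and not a bound site, and a longer space between the TSSs can hold more matches.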

How the data were processed

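ATAC-seq was measured in 4 replicates of 1 group, named by the biological replicate number in the labels. The authors deposited 1 list of regions per replicate on mm10, per the labels, and the peak names speak of masked, deduplicated and sorted reads. Which aligner and caller were used is not given in the sources used here, nor are versions. Each deposited line holds a region, a summit, a signal value read here, from the file layout and its values, as a fold enrichment ratio over background, −log10 p and −log10 q values made by the authors' caller, and a display score, which was not used. There were 0 unused columns of per-sample values. As no source used here states a scaling between replicates, the signal was only ranked within a list or averaged as it stands. Nothing says that the replicates came from separate animals, so p-values measure only the spread between these samples, which may be technical.

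Regions of chromosomes 1 to 19, X and Y only were joined to GENCODE M21 genes by any overlap of at least 1 bp with a window, using each gene's outermost TSS. A window was open in a replicate with at least 1 region and closed with none, and its strongest region by signal gave percentile, width and summit. CpG observed/expected and strings were read from the RefSeq GRCm38.p6 genome; standardisation weighted 5 equal-sized bins of all coding promoters, with edges at ratios of 0.178, 0.399, 0.655 and 0.803, to the pairs. Classes were compared within each replicate by an exact two-sided sign-flip permutation test. Scripts ran in Python 3.11.15 with numpy 2.4.6, scipy 1.17.1 and matplotlib 3.10.9 and were tested on simulated data.

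Members, gene lists (patterns on gene symbols), strings and tests were chosen with earlier results of these data known. Pairs were named by rule: the 10 with the highest percentile, the 10 closed ones with the most CpG, every pair of the T-cell list and up to 4 of each other list (the 2 highest and 2 lowest), the 5 widest, up to 5 with separate regions, up to 5 partly open, and the printed sequences. The pairs covered on 1 side, the weakest pairs, those at the 1 kb limit and the closed pairs with another open start were named after their values were seen. Some marker genes that were checked are not reported here. Alternatives covered the threshold, overlap, windows, TSS choice, distance limit, unpartnered class, summit window and each replicate left out.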

Additional observations from a re-analysis of the deposited data

Results flagged for a closer look

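Of 44 quantities with 1 value per replicate, 3 had a replicate far from the other 3, where chance sets 1 apart in about 1 of 20 groups of 4. The median distance of the paired summit from the midpoint was 71 bp in replicate 3 and 67.5 bp in each of the others. The YY1 string AAGATGGCG was at 1.81% of paired summits in replicate 4 (13 of 719) and at 1.39% to 1.40% in the others (10 each). The ZNF143 string ACTACAATT was at 0.419% in replicate 2 (3 of 716) and at 0.278% to 0.279% in the others (2 each). The string flags thus rest on 3 summits and 1 summit.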

How the results depend on the processing

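Across 20 results and 176 alternatives, 166 kept their direction (tested results) or stayed within the spread between replicates or 1.5 times the count; the sign-flip test cannot pass the threshold with 4 replicates, so its side of the threshold says nothing of stability. The open share of pairs minus unpartnered promoters ranged from 2.95 points (richest CpG bin, chosen after seeing the data) to 44.7 points (strongest 50000 regions), the standardised difference from 7.17 (longer unpartnered windows) to 15.9 points (strongest 50000 regions), the percentile difference from 3.04 to 10.2 and the width difference from 84 to 197 bp. Pairs open in all 4 replicates numbered 654 of 685 at a limit of 500 bp and 1029 of 1096 from any coding transcript start. Leaving out each replicate gave 38.4 to 38.6 points, 8.09 to 8.30 points, 8.77 to 8.86 percentile points, 158 to 163 bp and 716 to 718 pairs. Leaving out histone genes, also added after seeing the data, changed no direction.

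The share with 1 region over both TSSs was 96.8% with a −log10 q of at least 10, 97.0% within the strongest 50000 regions, 95.7% with any transcript start and 98.8% at a limit of 500 bp (96.5% to 96.7% leaving out each replicate). The share with a summit between the TSSs was 44.0% with any transcript start and 45.1% at 500 bp (46.0% to 46.9%). Within 25 bp of the summit the differences for KLF/SP and CRE turned to -1.07 and -0.073 points, and the CTCF difference turned positive without replicate 1 (0.024) and without replicate 3 (0.017), within -0.037 to 0.024 points leaving out each replicate; the cause was not tested. Unknown depth and the authors' thresholds limit what a closed window shows.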
